A study of Mus musculus with 12 samples.

Results

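The 10 genes described here are the classical axon injury and regeneration genes Atf3, Jun, Sox11, Stat3, Smad1, Klf6, Cebpb, Gap43, Sprr1a and Gadd45a. They were chosen by name, and each was followed as the sum of the raw counts of all its transcripts that carried that gene name in both deposited tables. That gave 10 of 16617 genes and 26 of 31420 named transcripts, and all 10 genes had enough counts to be tested. RNA had been sequenced from cultures of dorsal root ganglion (DRG) neurons, the sensory neurons whose cell bodies lie beside the spinal cord, to ask which RNAs reach axons that are deficient in nucleolin, an RNA-binding protein. Each culture was made from the ganglia of 1 adult mouse and grown for 3 days on a membrane with 1 µm pores, through which neurites pass while cell bodies stay above. The soma side and the neurite side were then extracted separately. In the 4 groups, WT soma and WT neurites came from GAR+/+ mice, and het soma and het neurites came from GAR+/- mice, all on the C57B6 background. GAR is nucleolin's domain of glycine and arginine repeats, and het cultures kept 1 unaltered allele. No untreated or uninjured tissue was among the groups, and the neurons of all 4 groups had been cut from their axons by the dissection and dissociation. There were 3 libraries per group, described by the submitters as independent biological repeats, and the p-values measure the spread between those libraries.

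When a peripheral axon is cut, a sensory neuron switches on a set of transcription factors that together drive the growth of a new axon. Signals that travel back along the axon activate the DLK and JNK kinases, which act on Jun, and the gp130 cytokine receptors, which act on Stat3. BMP receptors act on Smad1. Atf3, Jun and Cebpb are leucine zipper proteins that bind DNA in pairs, Sox11 is an HMG-box factor, and Klf6 is a zinc finger factor. Among the proteins made in response, Gap43 is a membrane-attached protein of the growth cone, Sprr1a is a small proline-rich protein that is nearly absent from uninjured neurons and promotes neurite outgrowth, and Gadd45a is a stress-response protein linked to growth arrest and DNA repair. Dissociation is itself an axotomy, and cultured adult DRG neurons are known to express this program. Several of the mRNAs, Gap43 and Stat3 among them, are also known from axons.

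The promoters of Jun, Sox11, Klf6 and Sprr1a hold the same short word, and that of Atf3 holds a related one. Words of this kind are known to be bound by pairs of ATF and Jun family proteins, 2 of which are among the 10 genes, and the stretches are shown for that reason. The sequences are from RefSeq (GRCm38.p6), 5′ to 3′ on the gene's strand, with the matched letters in capitals.
Jun (chr4:95052234-95052293, minus strand): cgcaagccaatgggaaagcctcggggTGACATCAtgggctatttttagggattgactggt
Sox11 (chr12:27342727-27342786, minus strand): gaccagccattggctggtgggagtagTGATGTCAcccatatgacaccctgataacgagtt
Klf6 (chr13:5861344-5861403, plus strand): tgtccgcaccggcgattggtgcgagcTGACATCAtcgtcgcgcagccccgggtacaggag
Sprr1a (chr3:92486055-92486114, minus strand): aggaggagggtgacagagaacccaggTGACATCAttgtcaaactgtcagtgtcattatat
Atf3 (chr1:191183334-191183369, minus strand): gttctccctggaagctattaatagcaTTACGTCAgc
The letters TGACATCA, read on either strand, were found within 250 bases upstream of the RefSeq start in 4 of the 9 genes with a promoter sequence. They lay 45 to 38 bases before the start in Jun, 42 to 35 in Sox11 (as the reverse complement TGATGTCA), 119 to 112 in Klf6 and 207 to 200 in Sprr1a. Of 32851 mouse promoters of the same length, 2.93% held this word. In Atf3 the related word TTACGTCA lay 10 to 3 bases before the start, and 0.447% of all promoters held it on either strand. The full CRE word TGACGTCA was in 0 of the 9 promoters (1.55% of all), the AP-1 word TGAGTCA in that of Sprr1a (4.46% of all), the C/EBP palindrome TTGCGCAA in 0 (0.164%), the STAT word TTCNNNGAA in 0 (7.02%) and the TATA word TATAAA in that of Sprr1a (12.4%). The words were picked after the sequences had been read, so the counts are a description, and a match is not evidence that a factor binds there.

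The libraries held 14965973 to 32434916 counts, and the effective depth put 3 counts at 0.0905 to 0.210 CPM, the counts scaled to a common library size by the TMM method (trimmed mean of M-values), far under the levels of all 10 genes. Nucleolin itself (Ncl) averaged 231 ± 12.1 CPM (SD, n = 3) in soma from WT and 266 ± 21.1 in soma from het cultures, and 400 ± 72.1 and 380 ± 46.9 in the neurites of the same genotypes. Those counts cover the whole gene and do not check the loss of a domain. All 10 neuron markers were detected, and their summed level ran from 5783 to 6915 CPM in WT soma and from 6730 to 7591 in het soma. In neurites it ran from 4320 to 5998 for WT and from 5542 to 6850 for het, and most of it was Tubb3. The neurite libraries were not free of other material: 5 nuclear RNAs, chiefly Malat1, summed to 4682 to 9898 CPM in the 6 neurite libraries against 7820 to 10290 in the 6 soma libraries. Of these 5, Rian was called lower in WT neurites than in WT soma (198 against 327 CPM, adjusted p = 0.0136 by edgeR, described below). In het cultures edgeR called 0 of the 5. The median log2 fold change of the 5 for neurites over soma was -0.62 in WT and -0.40 in het. All 6 satellite glia markers and all 10 Schwann cell markers were also detected. Markers of dividing cells summed to 551 to 977 CPM in the neurites of WT against 237 to 461 in those of het, and in soma to 436 to 636 against 173 to 256. In bulk samples such as these, fewer cells of a type and less RNA per cell cannot be told apart.

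All 10 genes were expressed in all 12 libraries, from 31.6 CPM (Sprr1a in WT neurite library 1) to 1218 CPM (Atf3 in het soma library 2). In fits without a replicate block, none of the 10 passed the test in any of the 5 contrasts. The tests were edgeR's quasi-likelihood test with Benjamini-Hochberg adjustment over 15990 genes and DESeq2's Wald test. At an unadjusted p under 0.05 there were 3 (Atf3, Gap43 and Smad1) in het against WT neurites, where 20.9% of all tested genes were under that value, and 0 in the other contrasts, and DESeq2 had 4 in het against WT neurites. For comparison, 3.1% of all tested genes passed for neurites against soma in WT, 0.638% for neurites against soma in het, 0% for het against WT in soma, 3.27% for het against WT in neurites and 0% for the interaction, the difference between the genotypes in the neurite-to-soma change. A count of 0 among 10 genes is therefore near the background in every contrast. Beside the 0 genes called in soma, 1464 of the 15990 had an unadjusted p under 0.05, and DESeq2 called 320. Beside the 0 called for the interaction, 202 had an unadjusted p under 0.05, and DESeq2 called 0.

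**Figure D1:**
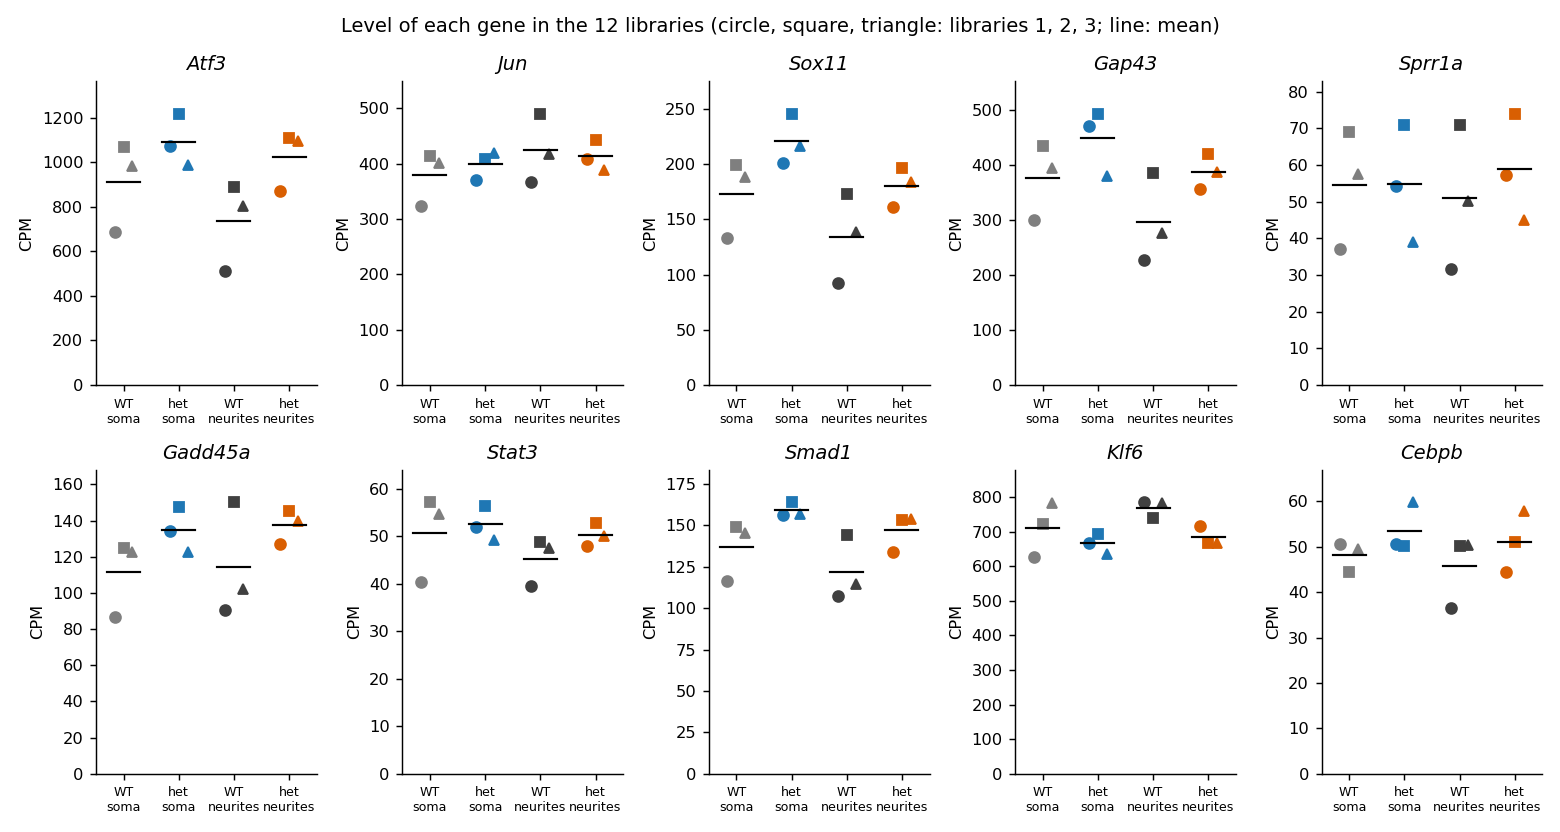
Level of each of the 10 genes (CPM, linear axis from 0) in the 12 libraries, by group. Circle, square and triangle are libraries 1, 2 and 3 and the line is the mean of 3. For every gene the lowest of the 12 points is a WT library 1, in neurites for 7 genes and in soma for 3.

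Atf3, which is hardly expressed in intact sensory neurons and is used as a marker of axotomy, lies on chromosome 1 (191170296 to 191218039, minus strand, GRCm38 by GENCODE M21). All its counts were on 1 coding transcript, and another annotated coding transcript was not listed in either compartment. In soma libraries 1 to 3 it stood at 685, 1067 and 983 CPM for WT and at 1071, 1218 and 989 CPM for het. In neurites it stood at 510, 888 and 806 CPM for WT and at 872, 1110 and 1093 CPM for het. Library 1 was the lowest of each WT group, and the groups overlapped in every comparison. Het neurites averaged 1025 ± 133 CPM against 734 ± 199 in WT neurites, a log2 fold change of 0.48 ± 0.20 (SE) with an adjusted p of 0.193 by edgeR. The same comparison in soma gave 0.26 ± 0.20 (adjusted p = 0.760).

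Jun, the AP-1 subunit that JNK phosphorylates, is a single-exon gene on chromosome 4 (95049034 to 95052222, minus strand). Its levels were among the steadiest of the 10 genes. In soma, WT held 323, 414 and 401 CPM and het 370, 408 and 419 CPM. In neurites, WT held 366, 490 and 418 CPM and het 408, 443 and 388 CPM. All 4 groups overlapped. Het against WT gave -0.04 ± 0.12 (log2, SE) in neurites and 0.07 ± 0.12 in soma, with edgeR adjusted p-values of 0.887 and 0.904.

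Sox11, a factor needed for the survival and growth of embryonic sensory neurons that returns after injury, is also a single-exon gene, on chromosome 12 (27334264 to 27342574, minus strand). In soma it stood at 133, 199 and 188 CPM for WT and at 201, 246 and 217 CPM for het. The 3 het soma libraries were all above the 3 WT soma libraries, the nearest being 201 and 199 CPM. Of all tested genes, 8.86% had het soma libraries entirely above WT soma, and among the 10 genes Sox11 and Smad1 did. In neurites, WT held 92.2, 173 and 138 CPM and het 162, 196 and 184 CPM, which overlapped. In the fit without a block, the differences of het against WT were 0.35 ± 0.20 in soma (edgeR adjusted p = 0.658) and 0.43 ± 0.20 in neurites (0.247).

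Smad1, which carries BMP signals to the nucleus, lies on chromosome 8 (79338395 to 79399518, minus strand). Its 2 coding transcripts held 98.5 to 99.4% of its counts. In soma, WT held 116, 149 and 146 CPM and het 157, 164 and 157 CPM, which did not overlap. In neurites, WT held 107, 144 and 115 CPM and het 134, 154 and 154 CPM, which overlapped because WT library 2 was above het library 1. Het against WT gave 0.22 ± 0.12 in soma and 0.27 ± 0.12 in neurites (log2, SE), with edgeR adjusted p-values of 0.645 and 0.214.

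Klf6, a zinc finger factor that promotes axon growth, lies on chromosome 13 (5861482 to 5870394, plus strand) and had the smallest range of the 10 genes, 1.25-fold from its lowest to its highest library. In soma, WT held 627, 723 and 784 CPM and het 667, 694 and 637 CPM. WT neurites held 785, 740 and 783 CPM, all above the 716, 668 and 667 CPM of het neurites. It was the 1 gene of the 10 whose het neurite libraries were entirely below WT, as 10.8% of all tested genes were. The difference was -0.17 ± 0.10 on the log2 scale (edgeR adjusted p = 0.342), and in soma it was -0.09 ± 0.10 (0.833).

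Cebpb, a C/EBP factor of injury and inflammation, is a single-exon gene on chromosome 2 (167688915 to 167690418, plus strand). Its soma values were 50.6, 44.5 and 49.5 CPM for WT and 50.6, 50.2 and 59.8 CPM for het. Its neurite values were 36.5, 50.2 and 50.3 CPM for WT and 44.4, 51.0 and 57.9 CPM for het. All groups overlapped, and het against WT gave 0.15 ± 0.13 in soma and 0.16 ± 0.14 in neurites (log2, SE), with edgeR adjusted p-values of 0.799 and 0.533.

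Stat3, the factor that gp130 cytokines activate in the axon and that travels to the nucleus, lies on chromosome 11 (100885098 to 100939540, minus strand). Soma values were 40.5, 57.2 and 54.8 CPM for WT and 52.0, 56.4 and 49.3 CPM for het. Neurite values were 39.5, 48.9 and 47.5 CPM for WT and 47.9, 52.8 and 50.2 CPM for het. The groups overlapped, and het against WT gave 0.05 ± 0.13 in soma and 0.15 ± 0.13 in neurites (log2, SE), with edgeR adjusted p-values of 0.942 and 0.542.

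The composition of the Stat3 counts sets it apart from the other 9 genes. Of its 11 transcripts in the tables, 8 are annotated as retained introns, and these held 93.8 to 97.7% of its counts in each library, while the 2 coding transcripts held 1.59 to 5.86%. The coding transcripts averaged 1.83 ± 0.287 CPM for WT and 2.49 ± 0.703 for het in soma, and 1.49 ± 0.742 for WT and 1.73 ± 0.157 for het in neurites (SD, n = 3). Another 2 annotated coding transcripts of Stat3 were not listed in either compartment, so they had no counts to analyse. How reads that fit several transcripts were counted is not given in the sources used here. One coding transcript, with 1712 exonic bases that lie in no other annotated Stat3 transcript, had 5 to 54 counts in a library, and a retained-intron transcript with 1417 such bases had 152 to 462. Another retained-intron transcript, with 0 such bases, had 141 to 356. How much of the retained-intron share came from reads of exons shared with coding transcripts was not tested. The Stat3 level is therefore a sum over fragments annotated within the gene and cannot be read as the level of its coding mRNA. Gadd45a also has retained-intron transcripts in the tables, but its listed coding transcript held 93.9 to 97.7% of its counts. Other annotated coding transcripts of Gadd45a were not listed in either compartment.

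**Figure D2:**
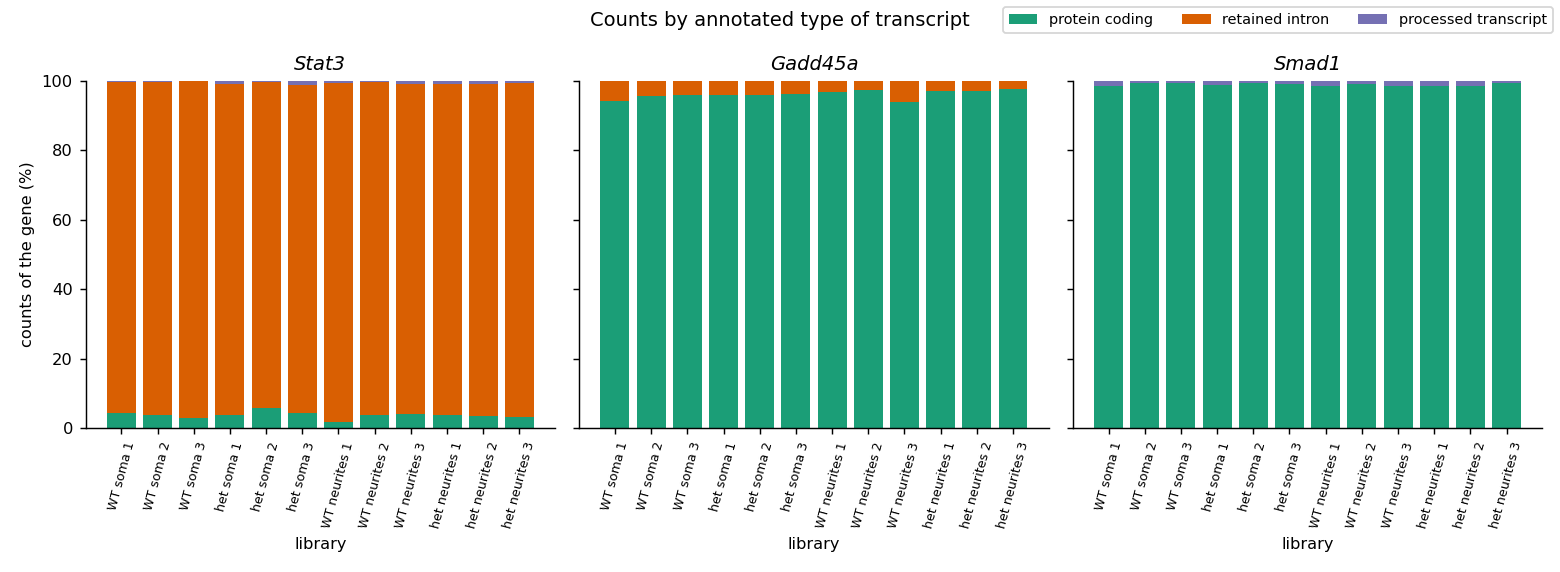
Share of each gene's counts (%, bars from 0 to 100) by the annotated type of its transcripts, for the 3 genes with more than 1 type, in the 12 libraries. Retained-intron transcripts hold 93.8 to 97.7% of the counts of Stat3 and at most 6.11% of those of Gadd45a, and coding transcripts hold at least 98.5% of those of Smad1.

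Gap43, the growth cone protein, lies on chromosome 16 (42248442 to 42340651, minus strand), and 1 coding transcript carried all its counts. Soma libraries held 301, 434 and 394 CPM for WT and 471, 493 and 380 CPM for het. Neurite libraries held 228, 384 and 277 CPM for WT and 356, 419 and 387 CPM for het. Het neurites averaged 388 ± 31.4 CPM against 296 ± 80.0 in WT neurites, and the groups overlapped through WT library 2. The difference was 0.39 ± 0.18 on the log2 scale (edgeR adjusted p = 0.236), and in soma it was 0.25 ± 0.18 (0.737).

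Sprr1a, on chromosome 3 (92483952 to 92485895, minus strand), had the widest spread within groups, with coefficients of variation of 24.7 to 38.7%. Its soma levels were 37.2, 69.1 and 57.6 CPM for WT and 54.2, 71.0 and 39.0 CPM for het. Its neurite levels were 31.6, 71.0 and 50.2 CPM for WT and 57.2, 74.0 and 45.1 CPM for het. Library 2 was the highest in all 4 groups, and the group means lay between 51.0 and 58.8 CPM. Het against WT gave 0.00 ± 0.34 in soma and 0.21 ± 0.34 in neurites (log2, SE, fit without a block). In that fit a change of the size seen in Atf3 could not have been told from the spread of this gene. With the library number as a block the SE was smaller, at 0.01 ± 0.20 in soma and 0.24 ± 0.20 in neurites.

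Gadd45a, on chromosome 6 (67035096 to 67037457, minus strand), stood in soma at 86.6, 125 and 122 CPM for WT and 134, 147 and 123 CPM for het. In neurites it stood at 90.4, 150 and 102 CPM for WT and 127, 145 and 140 CPM for het. WT neurite library 2 was the highest of all 12. The groups overlapped, and het against WT gave 0.28 ± 0.17 in soma and 0.27 ± 0.18 in neurites (log2, SE), with edgeR adjusted p-values of 0.697 and 0.408.

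Between the 2 compartments of WT cultures, the question is whether a gene's RNA makes up a larger or smaller part of the neurite RNA than of the soma RNA. Sox11, Gap43 and Atf3 had the lowest neurite shares, with log2 fold changes of neurites over soma of -0.37 ± 0.20, -0.34 ± 0.18 and -0.31 ± 0.20 (SE). Jun and Klf6 lay on the other side, at 0.16 ± 0.12 and 0.11 ± 0.10. None of these passed the test, with edgeR adjusted p-values of 0.308 to 0.936 over the 10 genes. The median of the 10 was -0.13, against 0.01 for all tested genes, and 7 of the 10 lay below 0.

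Libraries of WT soma and WT neurites with the same number deviated together (described with the processing), and with the culture as a block Sox11 and Gap43 fell in WT neurites. Sox11 fell by 0.39 ± 0.10 on the log2 scale (adjusted p = 0.0184, edgeR with the block) and Gap43 fell by 0.36 ± 0.11 (0.0435). That makes 2 of 10 genes, where 9.31% of all tested genes passed in the same blocked fit. With the number alone as the block, Sox11 passed (adjusted p = 0.0364), as 9.44% of all tested genes did, and Gap43 did not (0.0762). Within cultures the neurite-to-soma ratio of Sox11 was 0.694, 0.868 and 0.734, that of Gap43 ranged from 0.703 to 0.885, and that of Atf3 from 0.744 to 0.832, all below 1. Jun was above 1 in all 3 (1.04 to 1.18). Smad1 and Stat3 were also below 1 in all 3 WT cultures (0.788 to 0.966 and 0.855 to 0.976).

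In het cultures Sox11 and Gap43 again had the lowest values, at -0.29 ± 0.20 and -0.21 ± 0.18. Atf3 was at -0.09 ± 0.20, and the other 7 genes lay between -0.11 and 0.10 (log2 neurites over soma, SE). No gene passed (edgeR adjusted p-values of 0.568 to 0.962). The het neurite libraries of Sox11 and Smad1 were all below the het soma libraries, as those of 10.6% of all tested genes were. The interaction values ranged from -0.11 for Jun to 0.22 for Atf3, each within 1 SE of 0, and all adjusted p-values were 1.00 when rounded, so that a different neurite share in the 2 genotypes was not detectable for any of the 10.

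**Figure D3:**
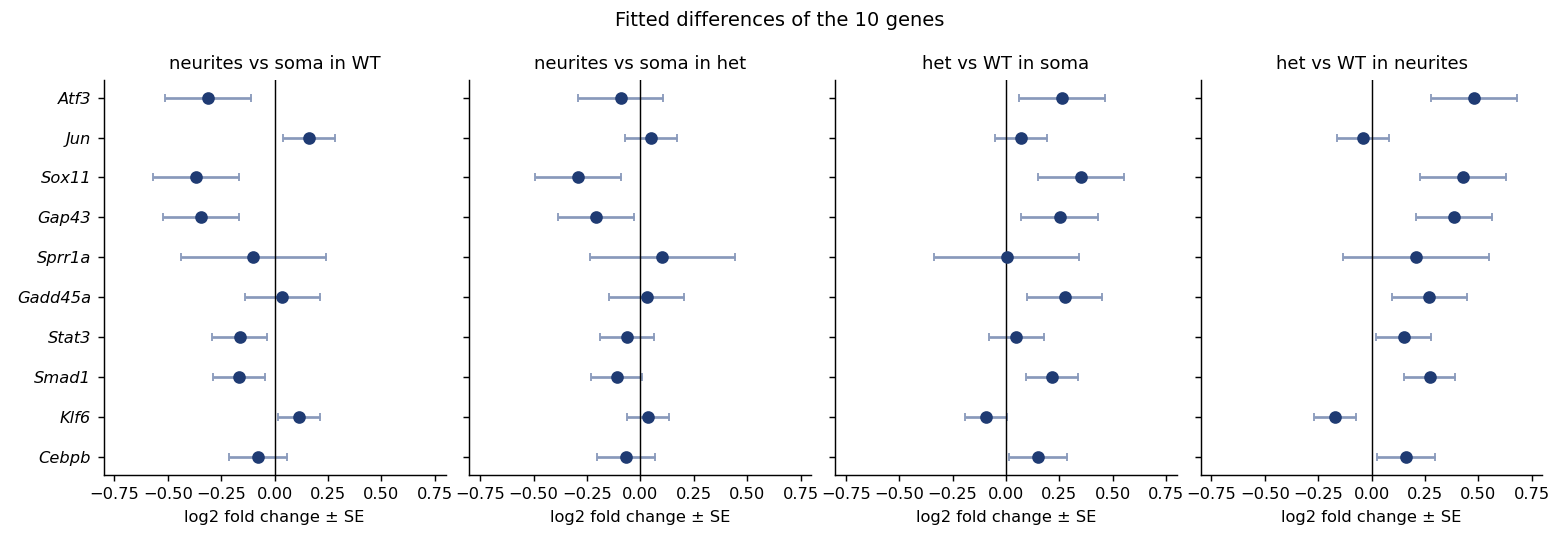
Fitted log2 fold changes of the 10 genes in 4 contrasts, with bars of 1 SE, from the edgeR fit without a block. Sox11, Gap43 and Atf3 lie lowest for neurites over soma in WT (-0.37, -0.34 and -0.31) and highest for het over WT in neurites (0.43, 0.39 and 0.48), 2 contrasts that share the WT neurite libraries.

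Between genotypes, 9 of the 10 genes had a higher fitted level in het than in WT soma and 8 of 10 in neurites, against 51.5% and 48.6% of all tested genes. The medians of the 10 were 0.18 in soma and 0.24 in neurites on the log2 scale, and those of all tested genes were 0.01 and -0.01. In both compartments Sox11, Gadd45a, Atf3, Gap43 and Smad1 were the 5 genes with the largest positive values, from 0.22 to 0.35 in soma and from 0.27 to 0.48 in neurites. Klf6 was below 0 in both. No single gene passed in either compartment in the fit without a block. The numbers pair WT and het soma (described with the processing). With the number as a block, 0 of the 10 passed in soma, where 3.25% of all tested genes did. Sox11 was closest, at 0.37 ± 0.11 (adjusted p = 0.0801, edgeR with the block). Unadjusted p-values under 0.05 in that fit were 5 of 10 in soma, beside 2223 of 15990 genes. In neurites the same block called Atf3, Sox11 and Gap43, beside 10.6% of all tested genes. There the numbers pair libraries 1 and 2 of WT and het but not library 3.

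The size of these differences rests in part on 1 WT culture. Each of the 10 genes had its lowest level of all 12 libraries in a WT library 1, in the neurites for 7 and in the soma for Jun, Gadd45a and Klf6. Library 1 was not low in both compartments for every gene. Klf6 had its highest level of all 12 in WT neurite library 1 (785 CPM), and Cebpb its highest of WT soma in library 1 (50.6 CPM). Without WT neurite library 1, the het against WT differences in neurites were 0.28 for Atf3, 0.22 for Sox11, 0.23 for Gap43, 0.19 for Smad1 and 0.13 for Gadd45a (log2, edgeR adjusted p-values of 0.489 to 0.787). Without WT soma library 1, those in soma were 0.09 for Atf3, 0.19 for Sox11, 0.11 for Gap43, 0.11 for Smad1 and 0.12 for Gadd45a (all adjusted p = 0.999). Leaving out WT neurite library 2 moved the values the other way. Without it, Gap43 (0.62, adjusted p = 0.0238), Gadd45a (0.52, 0.0344) and Smad1 (0.41, 0.0343) passed as higher in het neurites, and Gap43 passed as lower in WT neurites than in WT soma (-0.58, 0.0429), all by edgeR. Without that library 10.8% of all tested genes passed for het against WT in neurites and 6.62% for neurites against soma in WT.

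In the authors' deposited table, which tests single transcripts, Atf3 was higher in het neurites by 0.53 on the log2 scale with a false discovery rate of 0.0124. Sox11 was higher in het soma by 0.38 with a false discovery rate of 0.0110 in the authors' deposited table. Those were the only 2 calls there on the 26 transcripts, 1 in each compartment, where the authors' deposited table has 4.24% of all transcripts under 0.05 in soma and 3.02% in neurites. In neurites the authors' deposited table gives Sox11 as 0.49 (false discovery rate 0.0578) and Gap43 as 0.44 (0.0950).

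The summed level of the neuron markers was lowest in WT neurite library 1 (4320 CPM) and highest in het soma library 2 (7591 CPM), the libraries in which Atf3, Sox11, Gap43 and Smad1 were also lowest and highest. Of the 10 neuron markers, Uchl1 was higher in het than in WT neurites (1.38-fold, adjusted p = 0.0403, edgeR), and Rbfox3 and Uchl1 fell in WT neurites relative to WT soma (1.52-fold, 0.0202, and 1.37-fold, 0.0445). Of the 12 fits that each leave out 1 library, the Uchl1 call held in 5 for het against WT neurites and in 4 for WT neurites against WT soma, and the Rbfox3 call in 8. Among Schwann cell markers, Prx and Sox10 rose in WT neurites relative to WT soma (2.21-fold, adjusted p = 0.0187, and 1.42-fold, 0.0239, edgeR). Ngfr fell there (1.44-fold, 0.0486) and in het neurites relative to het soma (1.56-fold, 0.0484). These calls held in 9, 9, 3 and 3 of the 12 fits. The log2 medians for WT neurites over soma were 0.43 for Schwann cell and 0.70 for satellite glia markers. Of the 6 satellite glia markers, edgeR called 0 and DESeq2 3 there. Top2a, Aurkb, Cdk1 and Mki67 of 6 dividing cell markers, Fabp7 and Apoe of 6 satellite glia markers, and Sox10, Egr2 and Prx of 10 Schwann cell markers fell in het relative to WT neurites. In that contrast the 4 dividing cell calls held in 3 of the 12 fits each and the 5 glial calls in 8 or 9. In the neurite table fitted on its own, 0 genes were called for het against WT by edgeR (2208 at an unadjusted p under 0.05), so that the marker calls in that contrast were lost there. The summed Schwann cell markers overlapped between WT neurites (1609 to 1747 CPM) and het neurites (1415 to 1697). Ngfr had the highest level of that list (765 CPM on average over the 12 libraries) and was at 612 and 611 CPM in these 2 groups. The median of the 10 Schwann cell markers for het against WT neurites was -0.67 (log2), and DESeq2 called 6 of the 10. Of the macrophage, fibroblast and endothelial lists, 5, 6 and 4 genes were tested and 0 passed in any contrast, by edgeR or by DESeq2, with 2, 1 and 1 unadjusted p-values under 0.05 over the 5 contrasts.

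As plain differences of mean log2 CPM, the neuron markers summed to 0.33 more in het than in WT neurites, beside 0.51 for Atf3, 0.47 for Sox11 and 0.42 for Gap43. In soma the sum was 0.20 higher in het than in WT, beside 0.28, 0.37 and 0.26 for the same 3 genes. For neurites against soma in WT the sum differed by -0.32, beside -0.33 for Atf3, -0.39 for Sox11 and -0.36 for Gap43, while Jun and Klf6 were at 0.16 and 0.12. No test was made of these sums, and the part of cell composition in the differences of the 10 genes was not tested.

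Over the 12 libraries the genes fell into a graded series of profiles. Likeness was measured as the root mean square (RMS) difference between the centred log2 CPM values of 2 genes, and the libraries share depth and cell composition. The measure is not scaled to how much a gene varies, so genes that vary little can lie close by it. The SD of a gene's own log2 values ran from 0.12 for Klf6 to 0.41 for Sprr1a. It was 0.35 for Atf3 and 0.38 for Sox11, but 0.17 for Stat3 and 0.20 for Smad1. Atf3 and Sox11 were the closest of the 45 pairs (0.10), followed by Stat3 and Smad1 (0.11), Atf3 and Gap43 (0.12) and Sox11 and Gap43 (0.12). Sox11 and Klf6 were the farthest apart (0.42). Atf3, Sox11 and Gap43 were each among the nearest 100 genes of the other two, of 7228 genes with at least 10 CPM on average.

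The 2 nearest genes to each of the 10 were named by the same measure. They were Rhoq (0.07) and Ddit3 (0.08) for Atf3, and Ddit3 encodes CHOP, another leucine zipper factor. They were Arl4c (0.07) and Amer2 (0.08) for Sox11, and Elavl3 (0.08) and Rbfox1 (0.08), which encode neuronal RNA-binding proteins, for Gap43. Smad1 had Klhl24 and Eaf1, Stat3 had Cdyl2 and Klf13, and Gadd45a had Arhgap22 and Rnf125. Jun had Ubn1 and Lars, Klf6 had Dennd6a and Hcfc2, and Cebpb had Fam188b and Ndor1. Sprr1a, the gene that varied most, had Prdm9 (0.16) and Tmem88b (0.17), the least close of these by the unscaled measure.

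**Figure D4:**
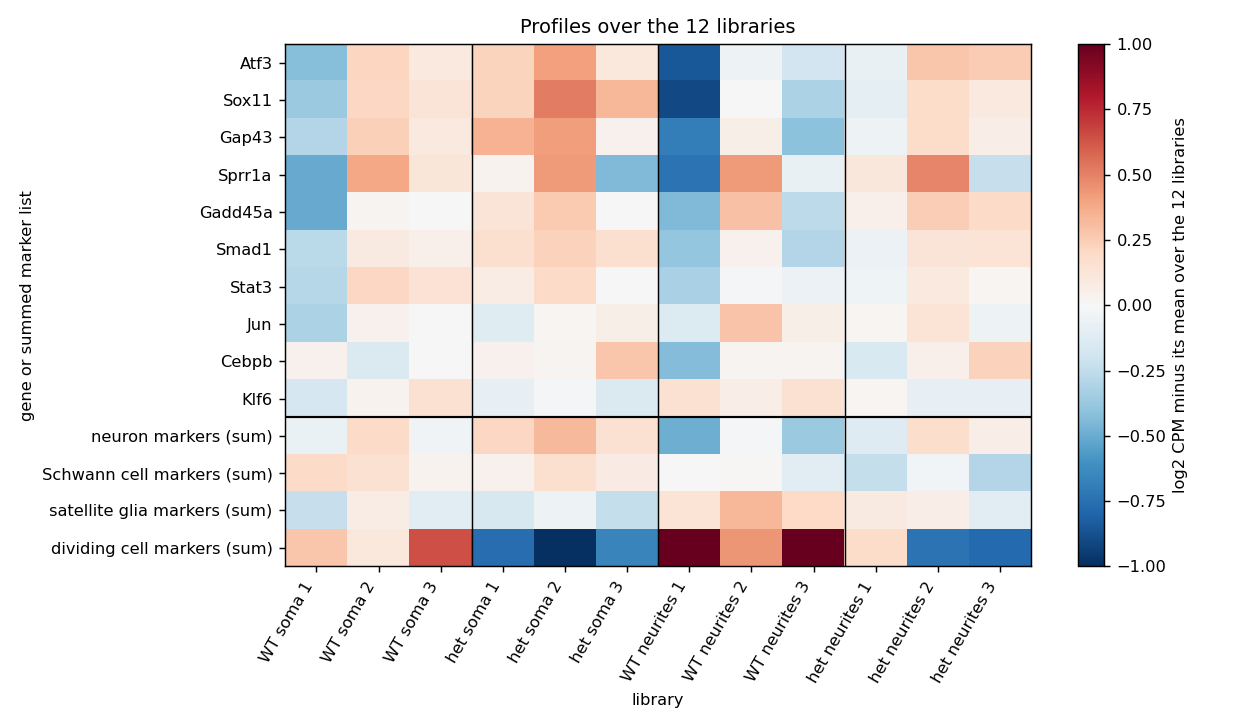
Level of each gene, and of 4 summed marker lists, in the 12 libraries as log2 CPM minus its mean over the 12. Colours end at 1 and -1, and values beyond share the end colour. Atf3, Sox11, Gap43 and the neuron markers are low together in WT neurite library 1, where the dividing cell markers are at their highest sum (977 CPM).

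Levels can be compared between genes only per length, and this was done for the 4 genes with 1 annotated transcript. In WT soma, Jun stood at 119 ± 15.4 CPM per kilobase (SD, n = 3), Sprr1a at 67.7 ± 20.0, Cebpb at 32.0 ± 2.18 and Sox11 at 20.9 ± 4.27. The lowest Jun library (101) was above the highest of Sprr1a (85.7), which ranged down to 46.1, and the lowest of Sprr1a was above the highest of Cebpb (33.7), whose lowest (29.6) was above the highest of Sox11 (23.9). In the other 3 groups the order of the means was the same, with 125 to 133 for Jun, 63.2 to 72.9 for Sprr1a, 30.4 to 35.6 for Cebpb and 16.2 to 26.6 for Sox11.

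The genes around the 10 were read from lists of their pathways and partners. Among 16 other genes that sensory neurons switch on after injury, 1 passed in any contrast. It was Gal, the neuropeptide galanin, which rose in het neurites from 57.8 ± 10.1 to 86.0 ± 15.3 CPM, a 1.49-fold difference (adjusted p = 0.0374, edgeR). Its het neurite libraries stood at 87.5, 101 and 70.1 CPM and its WT neurite libraries at 47.0, 59.5 and 67.0 CPM. The list's median for het against WT was 0.10 in soma and 0.28 in neurites, close to those of the 10 genes. The medians for neurites against soma were -0.33 in WT and -0.23 in het.

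Of 16 growth cone and axon growth proteins, 2 rose in WT neurites relative to WT soma and 0 fell. These were Dclk1, a microtubule-binding kinase (157 ± 10.7 to 242 ± 25.6 CPM, adjusted p = 0.0174), and Marcks, a membrane protein with a domain that binds actin (610 ± 27.6 to 894 ± 131 CPM, 0.0281). Gap43, which like Marcks is a membrane protein and a substrate of protein kinase C, had its values on the other side of 0 in the same contrast. Stmn2, a tubulin-binding protein of growing axons, was at 1976 CPM in WT and 2658 CPM in het neurites (adjusted p = 0.0679 by edgeR).

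Upstream of Jun, 0 of the 10 DLK and JNK pathway genes passed edgeR's test in any of the 5 contrasts, where 9 unadjusted p-values were under 0.05. DESeq2 called 3 of them for neurites against soma in WT (Mapk8, Mapk10 and Spag9). The closest by edgeR was Mapk8, which encodes JNK1, with 67.1 CPM in soma and 52.5 CPM in neurites of WT (adjusted p = 0.0574). Among 16 partners of the leucine zipper factors, Maff rose in WT neurites (5.87 ± 1.43 to 10.4 ± 0.617 CPM, adjusted p = 0.0377) and Cebpd fell in het neurites (153 ± 31.3 to 95.3 ± 16.1 CPM, 0.0435). Cebpb, the paralog of Cebpd, had values of the opposite sign in that contrast.

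Around Stat3, 0 of 13 tested genes of the gp130, JAK and STAT pathway passed in any contrast, by edgeR or by DESeq2, and 6 unadjusted edgeR p-values were under 0.05 over the 5 contrasts. Lifr, a receptor of the pathway, had 1204 CPM in soma and 941 CPM in neurites of WT (edgeR adjusted p = 0.235), and Socs3, its feedback inhibitor, had 145 CPM in neurites of WT and 118 CPM in those of het (0.0956). Around Smad1, 1 of 17 genes of the BMP and Smad pathway passed. Bmpr1a, a type I BMP receptor, fell in het neurites from 300 ± 17.2 to 221 ± 26.6 CPM (1.36-fold, adjusted p = 0.0343, edgeR). All 3 het libraries (195 to 249 CPM) were below all 3 WT libraries (280 to 313 CPM), as those of 10.8% of all tested genes were.

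Of 9 relatives of Klf6, Sox11 and Gadd45a, 3 passed in at least 1 contrast. Sox4, a SoxC factor like Sox11, rose in neurites relative to soma in WT (220 ± 12.3 to 381 ± 59.5 CPM, 1.73-fold, adjusted p = 0.00452) and in het (202 ± 15.1 to 292 ± 8.94 CPM, 1.45-fold, 0.0468), where the values of Sox11 lay below 0. Gadd45b fell in het neurites relative to WT neurites (214 ± 52.6 to 128 ± 1.90 CPM, 1.67-fold, 0.0215), and so did Klf4, a factor that represses axon growth (45.5 ± 10.4 to 28.7 ± 2.28 CPM, 1.59-fold, 0.0278). The values of Gadd45a in that contrast were of the opposite sign. In the same contrast 3 of 10 Schwann cell and 2 of 6 satellite glia markers fell, and their part in the Gadd45b, Klf4, Cebpd and Bmpr1a values was not tested. For neurites against soma in WT, the Schwann cell markers Prx and Sox10 rose. The part of Schwann cells and other glia in the Sox4, Dclk1, Marcks and Maff values was not tested. The Sox4 call in WT held on leaving out each of the 12 libraries. The calls on Gadd45b, Klf4, Cebpd, Bmpr1a and Gal were each lost without WT neurite library 1 or 3 or het neurite library 2 or 3, with adjusted p-values up to 0.192, and Cebpd, Klf4, Bmpr1a and Gal also without some soma libraries. In the neurite table fitted on its own their adjusted p-values were 0.117 for Gadd45b, 0.139 for Klf4 and for Cebpd, 0.174 for Bmpr1a and 0.151 for Gal. Those on Dclk1, Marcks and Maff held in 9, 7 and 4 of the 12, and that on Sox4 in het in 3.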

How the data were processed

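The 12 libraries, 4 groups of 3, were made from total RNA with a stranded kit that removes ribosomal RNA, per the labels' protocols. CASAVA 1.8.2, edgeR and the mm10 (GRCm38) genome are named in the submitters' processing notes. The sources used here do not name the aligner, the counting program or the annotation. For each compartment the authors deposited 1 table of transcripts, whose library columns are raw counts per the file headers and the values. Each row also carries log2 values of the authors' own contrast, het over WT, per the file headers, and the p-value and false discovery rate that the authors deposited with it. In every row, 3 or more of the 6 libraries reached 5 counts. Another 24 per-sample columns were not used. Transcripts lacking a gene name held 0.574 to 0.694% of a library's counts and were left out.

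Gene sums were taken over transcripts found in both tables. After filterByExpr and TMM scaling, edgeR's robust quasi-likelihood model (version 4.0.16, R 4.3.3) was fitted with 1 mean per group. P-values were 2-sided and adjusted by Benjamini-Hochberg over 15990 genes in each of 5 contrasts, with a threshold of 0.05. The SE is the size of the log2 fold change over the square root of the F statistic, and levels are CPM as mean ± SD. The fit was tested on simulated counts drawn independently for each library, so that test does not cover libraries that deviate together. Of the transcripts in either table, 97.6% were found in GENCODE M21, from which positions and transcript types were taken, and 9 of the 10 genes were found in the RefSeq promoter table.

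Alternatives were RLE size factors, no filter, DESeq2 1.42.0, a replicate block by number or by culture, each compartment's own table, and leaving out each library. To check the pairing, deviations from group means were correlated over 7772 genes. Same-numbered libraries of WT soma and WT neurites correlated at 0.579, 0.594 and 0.405 and those of WT and het soma at 0.422, 0.559 and 0.215, so the numbers pair these groups. Those of WT and het neurites gave 0.401, 0.487 and -0.123, where the highest values with another number were 0.006, 0.076 and 0.265. There the numbers pair libraries 1 and 2 but not library 3. Those of het soma and het neurites gave 0.205, 0.518 and -0.241, against 0.223, 0.056 and 0.261 with another number. There only library 2 is paired by its number.

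The 10 genes, the lists and the tests were chosen with earlier results of these data known. Named besides the 10 were, from each list, up to 4 called genes with the smallest p or up to 2 where none passed, and per gene the 2 nearest profiles.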

Additional observations from a re-analysis of the deposited data

How the results depend on the processing

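All values are log2 fold changes or counts at an adjusted p under 0.05. RLE size factors and no filter on low counts changed no call on the 10 genes, and neither did DESeq2, but DESeq2 moved the genes called to 1146 (neurites against soma in WT, from 495), 488 (the same in het, from 102), 320 (het against WT in soma, from 0) and 1209 (in neurites, from 523). Each compartment's own table gave 388 genes in soma and 0 in neurites (2208 at an unadjusted p under 0.05). The replicate block by number gave 1510, 668, 520 and 1696 genes and the replicate block by culture 1489 and 671. In het cultures only library 2 was paired across the compartments by its number. Of the 10 genes, 1 (number) and 2 (culture) were called for neurites against soma in WT. With the replicate block by number 3 were called for het against WT in neurites, beside 10.6% of all tested genes. These were Atf3 (0.51), Sox11 (0.46) and Gap43 (0.41), and in that contrast the numbers pair libraries 1 and 2 but not library 3. The block changed no other call on the 10. Gadd45a, -0.01 for the interaction, was 0.007 with RLE and with DESeq2, 0.003 with the number block and 0.010 with the culture block. Leaving out each library in turn gave 93 to 1081 genes (neurites against soma in WT), 0 to 191 (in het), 0 to 64 (het against WT in soma), 0 to 1767 (in neurites) and 0 to 0 (interaction), and of the 10 genes 0 to 1, 0 to 0, 0 to 0, 0 to 3 and 0 to 0. The cause of these moves was not tested. A group then has 2 libraries, and their spread is taken to be that of the other groups. Signs changed on leaving out 1 library for genes near 0. For neurites against soma in WT the ranges were -0.154 to 0.060 for Cebpb, -0.210 to 0.177 for Gadd45a and -0.409 to 0.147 for Sprr1a. In het they were -0.154 to 0.012 for Atf3, -0.165 to 0.029 for Cebpb, -0.026 to 0.098 for Gadd45a, -0.002 to 0.094 for Jun and -0.100 to 0.334 for Sprr1a. For het against WT in soma they were -0.033 to 0.139 for Jun, -0.228 to 0.210 for Sprr1a and -0.091 to 0.143 for Stat3, and in neurites -0.137 to 0.074 for Jun and -0.041 to 0.515 for Sprr1a. For the interaction they were -0.126 to 0.114 for Cebpb, -0.148 to 0.239 for Gadd45a, -0.022 to 0.367 for Gap43, -0.207 to 0.004 for Jun, -0.151 to 0.006 for Klf6, -0.028 to 0.193 for Smad1, -0.133 to 0.295 for Sox11 and -0.045 to 0.511 for Sprr1a. Depth limits none of the 10 gene sums, whose lowest count in a library was 452 (Sprr1a). The coding transcripts of Stat3 were far shallower, with 5 and 4 counts in WT neurite library 1. The number of libraries limits the precision.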
